A study of Mus musculus with 8 samples.

Results

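The nuclear genes of oxidative phosphorylation were followed in liver RNA of Btg2-knockout (KO) and wild-type (WT) mice. They were chosen by name: every gene with a probe on the array whose mouse symbol begins with Ndufa, Ndufb, Ndufc, Ndufs, Ndufv, Sdha, Sdhb, Sdhc, Sdhd, Uqcr, Cox4 to Cox8 or Atp5. This gave 97 genes of the 20284 genes with a named probe, read by 128 of 55681 probes. Of the 97 genes, 95 were detected (well above background) by both arrays of some group and were tested among 14578 genes in all, and 93 were detected on all 8 arrays. The remaining genes, Cox7b2 and Cox8c, were not well above background on any array. Each gene was read through its brightest probe. The names also took in assembly factors (the Ndufaf and Sdhaf genes), which build the complexes without being part of them. They left out Cyc1, the cytochrome c1 of complex III, and the subunits encoded by mitochondrial DNA, which were not analysed here.

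Btg2, also known as TIS21, encodes a growth-restraining protein that binds the CCR4-NOT deadenylase. The 4 groups were livers of KO males aged 10 weeks and fasted for 20 h (adult KO), livers of WT males of the same age and fast (adult WT), and pooled livers of KO and of WT fetuses of embryonic day 13.5 (fetal KO and fetal WT). Each fetal pool held male and female fetuses of 1 womb, and no fetal group was fasted by protocol. Fed adults were not analysed here, and the strain, the targeted allele and the number of adult mice were not stated in the labels. The series' design text describes each RNA sample as measured in technical duplicate on 2 arrays, so every p-value below measures array error and compares 1 RNA sample with another, not genotypes.

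Oxidative phosphorylation turns the electrons of food into ATP in the inner mitochondrial membrane. Complex I takes electrons from NADH and complex II takes them from succinate. Complex III passes them to cytochrome c, and complex IV hands them to oxygen. Complexes I, III and IV pump protons, and complex V, the ATP synthase, lets the protons back to make ATP. In a fasted liver this chain is fed largely by fatty acid oxidation and pays for glucose synthesis. The fetal liver at this stage is mainly a site of red blood cell formation. Several subunits of complex IV come as a form found in liver and most tissues and a form restricted to heart, skeletal muscle, lung or testis.

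The 75th percentile of the processed signal, by which each array was scaled, lay between 147 and 149 on the adult KO arrays, against 115 and 116 on the adult WT arrays. It lay at 241 on both fetal KO arrays, against 277 and 287 on the fetal WT arrays. Pearson's r between the duplicates of a group was 0.992 to 0.997 across genes. Btg2 itself, the check of the labels, had signals of 6.26 and 8.02 on the adult KO arrays, against 149 and 158 on the adult WT arrays. It had 4.54 and 5.14 on the fetal KO arrays, against 2071 and 2080 on the fetal WT arrays. It was not well above background on the 4 KO arrays and was detected on the 4 WT arrays. KO was thus at least 7.63-fold lower in adult and at least 99.1-fold lower in fetal liver (adjusted p = 7e-07 and 8e-07, limma). Of 10 hepatocyte markers tested, 10 were detected on both arrays of adult KO and of adult WT liver, and 9 on both arrays of fetal KO and of fetal WT liver.

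In fasted adult liver, most of the 95 genes gave a slightly lower scaled signal in KO than in WT, and none differed by 2-fold. The call used here needs an adjusted p under 0.05 in limma and a difference of at least 2-fold. By that rule 0 of 95 genes were called in adult KO against adult WT, beside 7.52% of all genes tested. "Rose" and "fell" below need an adjusted p under 0.05 at any size of difference. By this second rule 5 of the 95 genes rose and 76 fell in adult KO liver, where 22.3% of all genes tested rose and 32.2% fell. The median difference was -0.35 on the log2 scale, beside -0.10 over all genes tested. These genes are bright: 70 of the 95 belong to the brightest 10% of all genes tested, which had a median of -0.28. Of the 1457 genes in that brightest 10%, 190 rose and 1019 fell. The arrays of adult KO both lay below those of adult WT for 83 genes and above them for 8, and the arrays overlapped for 4. Of all genes tested, 46.5% lay below and 30.3% above in this way.

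The size of this difference hangs on how the arrays are put on a common scale. Signals before scaling were nearly equal for many of these genes: Cox4i1, the common form of complex IV subunit 4, gave 65729 and 64889 on the adult KO arrays, against 66273 and 67449 on the adult WT arrays. Without any scaling between arrays 28 of the 95 genes rose and 23 fell, and their median was 0.014, when that of all genes was 0.26 and that of the brightest 10% was 0.077. With quantile normalization it was -0.13, beside 0.013 for all genes, and 51 genes fell, all of them among the 76. With each array's median signal as the scale it was -0.15 and 0 genes passed the adjusted p in either direction. Relative to the median of all genes tested, the median of the 95 genes in adult KO stood at -0.24 as reported, at -0.14 with quantile normalization and at -0.24 without scaling. Relative to the brightest 10% it stood at -0.06 under each of these 3.

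**Figure D1:**
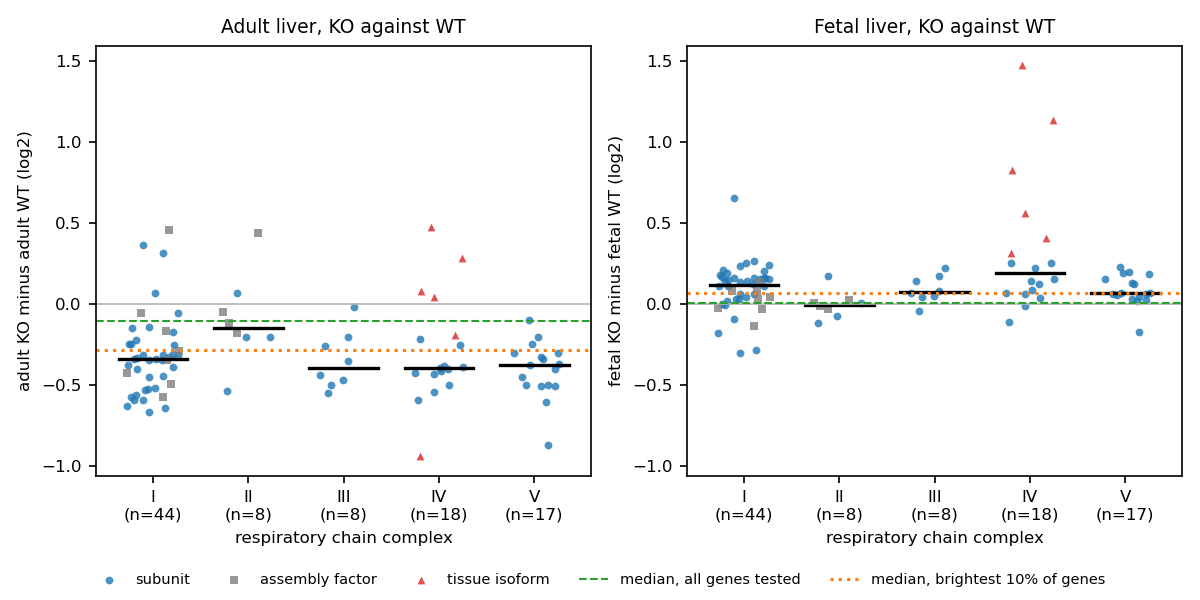
Log2 difference of KO minus WT (vertical axes) for the 95 genes tested, by complex, in adult (left) and fetal (right) liver. Each point is 1 gene, coloured by class, from 2 arrays per group. Black bars are medians by complex. The dashed and dotted lines are the medians of all genes tested and of the brightest 10% of genes. Most points of the adult panel lie below 0 (median -0.35 as scaled to the 75th percentile, 0.014 without scaling). The highest 3 points of the fetal panel are tissue isoforms of complex IV.

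Within complex I, the accessory subunits fell almost without exception on the reported scale, while 2 catalytic core subunits rose. Complex I is the largest of the complexes, with a core inherited from bacteria and a shell of accessory subunits that stabilise it. Of 29 accessory subunits tested, 0 rose and 27 fell in adult KO liver (median -0.35). Of 7 core subunits, 2 rose and 4 fell (median -0.31). Of the 8 Ndufaf assembly factors, which stand among the 44 genes of complex I, Ndufaf6 rose by 0.46 ± 0.05, 6 fell by 0.17 to 0.57 on the log2 scale, and Ndufaf2, at -0.06, did not pass (adjusted p = 0.27, limma). With quantile normalization the accessory subunit Ndufa10 and the core subunit Ndufs1 also rose. Several other accessory subunits, Ndufa1 among them, no longer fell there. With the median as scale 0 of the 95 genes passed. Before scaling Ndufa1 was higher in adult KO, with 26138 and 25380, against 23716 and 23238 on the adult WT arrays.

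The lowest subunit of complex I was Ndufb7, an accessory subunit of the membrane arm. It had signals of 18287 and 18102 on the adult KO arrays, against 22841 and 22349 on the adult WT arrays. Both adult KO arrays were lower before scaling as well as after it. The log2 difference was -0.67 ± 0.03 (SE, n = 2 arrays per group, adjusted p = 2.8e-06, limma). Ndufs8, a core iron-sulfur subunit, had 3254 and 3127 on the adult KO arrays, against 2016 and 1985 on the adult WT arrays, with no overlap between the groups, and rose by 0.31 ± 0.03 (adjusted p = 5.6e-05, limma). Ndufs7, which carries the last iron-sulfur cluster before quinone, fell by 0.60 on the log2 scale. Ndufv1, which binds NADH, fell by 0.31. The core of complex I thus held genes on both sides of the median of all genes.

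Complex II, the succinate dehydrogenase that also works in the citric acid cycle, showed a spread between its subunits through the probes used. Sdhb, the iron-sulfur subunit, had 28977 and 26783 on the adult KO arrays, against 32691 and 30521 on the adult WT arrays, and fell by 0.54 on the log2 scale (adjusted p = 0.00011, limma). The other, dimmer probe of Sdhb gave only -0.08. Sdha, the flavoprotein that oxidises succinate, had 13357 and 13083 on the adult KO arrays, against 9967 and 9698 on the adult WT arrays. Its scaled difference of 0.07 ± 0.03 did not pass (adjusted p = 0.074, limma), but Sdha rose with quantile normalization. The membrane anchors Sdhc and Sdhd fell by 0.20 and 0.21 as scaled, but neither fell with quantile normalization. Before scaling both were higher in adult KO. Sdhc had 8212 and 8246 on the adult KO arrays, against 7413 and 7357 on the adult WT arrays. Sdhd had 18424 and 18826, against 17047 and 16481. Among the 4 Sdhaf assembly factors Sdhaf3 rose by 0.44 ± 0.08 and Sdhaf4 fell by 0.18, while Sdhaf1 and Sdhaf2, at -0.05 and -0.12, did not pass.

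In complex III all 8 genes had differences below 0 as scaled, and 7 fell. With quantile normalization only Uqcr10, Uqcr11, Uqcrb and Uqcrh still fell. On the reported scale the 5 accessory subunits fell with a median of -0.47. The 3 others, the core proteins Uqcrc1 and Uqcrc2 and the Rieske iron-sulfur protein Uqcrfs1, had a median of -0.20. Uqcrq, a small accessory subunit, had the lowest value, -0.55 ± 0.09 (adjusted p = 0.0011, limma), from 57510 and 55527 on the adult KO arrays, against 69667 and 59716 on the adult WT arrays. With quantile normalization its difference was -0.18 (adjusted p = 0.064, limma). Uqcrc1 had the highest, -0.02 ± 0.07, and did not pass (adjusted p = 0.84, limma).

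In complex IV the 12 genes that are not tissue isoforms, the supercomplex factor Cox7a2l among them, were close together, between -0.60 and -0.22, and 11 of the 12 fell (Cox5a, at -0.22, did not pass with an adjusted p of 0.054 in limma). Of these genes, Cox4i1 and Cox6a1 no longer fell with quantile normalization. In complex V 16 of 17 genes fell. With quantile normalization Atp5b, Atp5c1, Atp5e, Atp5g1, Atp5j and Atp5md no longer did. The 5 subunits of the catalytic F1 head had a median of -0.33, the 3 genes of the rotor's c ring -0.40, the 4 of the peripheral stalk -0.43 and the 5 small membrane subunits -0.50. Atp5o, the stalk subunit that confers oligomycin sensitivity, was lowest with 4808 and 4537 on the adult KO arrays, against 6853 and 6506 on the adult WT arrays. It fell by 0.87 on the log2 scale, 1.83-fold, with an SE of 0.04 (adjusted p = 2.9e-06, limma). Its difference lay between -0.92 and -0.68 under all alternatives run for it (no scaling was not among them), and only with the median as scale did it miss the adjusted p (0.13, limma). Atp5pb, another subunit of the same stalk, had -0.10 ± 0.04 (adjusted p = 0.084, limma). Subunits of 1 stalk thus ran from -0.87 to -0.10.

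**Figure D2:**
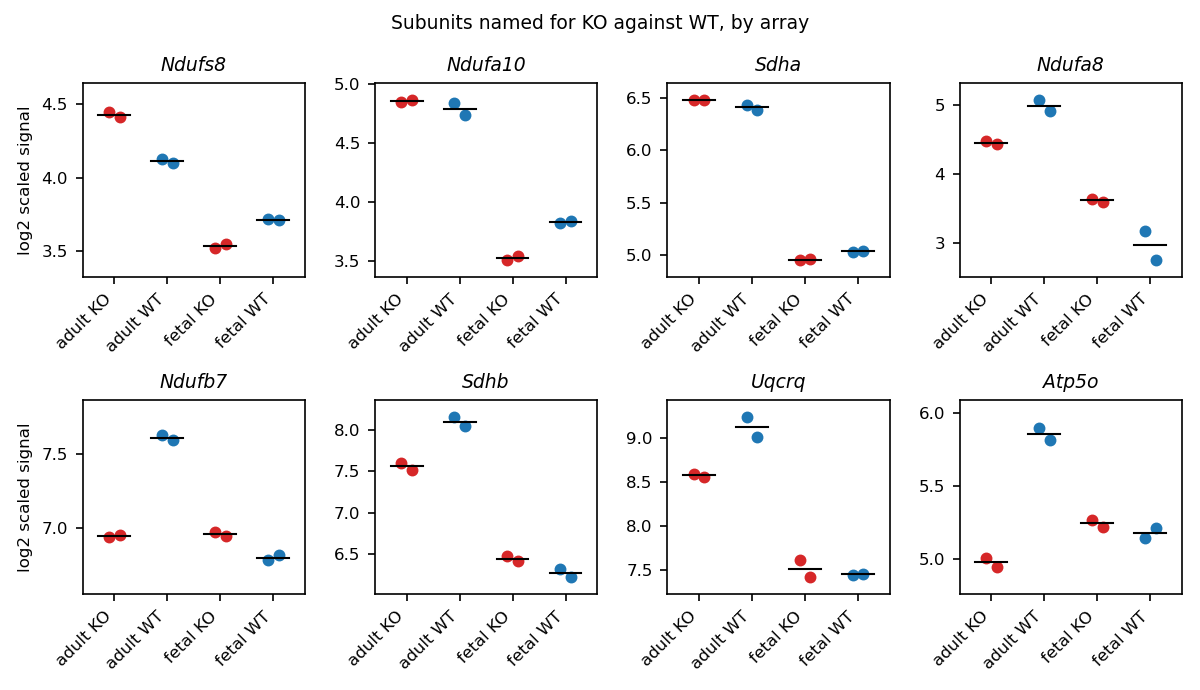
Log2 signal scaled to each array's 75th percentile (vertical axes, a separate range for each gene) on the 2 arrays of adult KO, adult WT, fetal KO and fetal WT liver. Points are arrays and bars are means. Ndufs8 was higher in adult KO than in adult WT and lower in fetal KO than in fetal WT, while Ndufb7 and Atp5o were lower in adult KO.

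Markers of cell types were also compared between the adult samples. All 9 macrophage markers tested rose in adult KO liver, with a median of 3.09, and their summed signal, in multiples of the 75th percentile, was 366 to 380 in adult KO and 61.5 to 65.3 in adult WT. Of 10 hepatocyte markers 1 rose and 8 fell (median -0.27), and their sum was 7059 to 7111 in adult KO and 8724 to 8941 in adult WT. That median lay near the -0.28 of the brightest 10% of all genes tested. The 75th percentile that scales these sums was itself higher in adult KO (147 and 149) than in adult WT (115 and 116). The part of these cell types in the differences of the oxidative phosphorylation genes was not tested. In whole tissue, fewer cells of a type and less RNA per cell cannot be told apart.

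In fetal liver the same genes differed less between KO and WT on the reported scale. That ranking depended on the scale. With quantile normalization the medians were -0.13 in adult and 0.037 in fetal KO against WT. With the median as scale they were -0.15 and 0.15, and without scaling 0.014 and -0.12. Of the 95 genes 1 was called, Cox6a2, beside 1.91% of all genes tested (0.466% higher). By the second rule 32 rose and 4 fell in fetal KO, where 10.3% of all genes tested rose and 8.42% fell. The median was 0.11, beside 0.0038 for all genes and 0.067 for the brightest 10%. Without scaling between arrays the balance turned: 4 rose and 44 fell, with a median of -0.12, beside -0.22 for all genes. With quantile normalization 20 genes rose, all among the 32, and 9 fell. Leaving out 1 fetal array gave 6 to 19 genes that rose, and the lowest of these came without the first fetal KO array.

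Complex I again held the widest spread of the ubiquitous subunits. Ndufa8, an accessory subunit at the outer face of the inner membrane, had 3011 and 2922 on the fetal KO arrays, against 2601 and 1876 on the fetal WT arrays. Its difference was 0.65 ± 0.12 (adjusted p = 0.012, limma), and the fetal WT duplicates stood further apart than the fetal KO duplicates. Without the first or the second fetal KO array the adjusted p was 0.073 or 0.06. Ndufa10 had 2744 and 2808 on the fetal KO arrays, against 4053 and 3981 on the fetal WT arrays, and fell by 0.31 on the log2 scale (adjusted p = 0.0029, limma). Ndufs8 fell by 0.18 in fetal KO. The accessory subunits had 16 that rose and 1 that fell of 29 (median 0.15).

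In complex II none of the 8 genes passed in limma, from -0.12 for the anchor Sdhd (adjusted p = 0.064) to 0.17 for Sdhb (adjusted p = 0.067). In complex III 2 of 8 rose, and the values ran from -0.04 for Uqcrfs1 to 0.22 for Uqcrb. In complex V 4 of 17 rose and Atp5pb fell by 0.18 (adjusted p = 0.027, limma), a call lost without the first fetal KO, either fetal WT or either adult KO array (adjusted p 0.0523 to 0.159, limma). Those 4 were all among the 5 small membrane subunits, led by Atp5j2 at 0.23 ± 0.04.

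The 3 highest values in fetal KO liver as scaled belonged to tissue isoforms of complex IV, Cox6a2, Cox8b and Cox7a1, and Ndufa8 came next. All 6 isoforms tested had a positive difference (median 0.70) and 4 rose. Cox6a2, the heart and skeletal muscle form of subunit 6a, had 2706 and 2570 on the fetal KO arrays, against 1136 and 1082 on the fetal WT arrays. It was 2.78-fold higher in fetal KO (log2 difference 1.48 ± 0.29, adjusted p = 0.014, limma). The groups did not overlap, but with any 1 of the 4 fetal arrays left out the adjusted p was 0.065 to 0.083. Cox8b, the muscle and brown fat form of subunit 8, had 536 and 542 on the fetal KO arrays, against 290 and 283 on the fetal WT arrays, a difference of 1.14 ± 0.33 (adjusted p = 0.051, limma). The adjusted p of Cox8b in limma was 0.014 with the median as scale and 0.032 with slide row as a block. It was 0.049 with the 75th percentile of probes detected on all arrays and 3.4e-05 with normexp background correction. Cox7a1, the heart and muscle form of subunit 7a, had 1936 and 1913 on the fetal KO arrays, against 1326 and 1216 on the fetal WT arrays, and rose by 0.83 ± 0.04 (adjusted p = 9.2e-05, limma). In each of these 3 both fetal KO arrays lay above both fetal WT arrays.

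Cox6b2, the testis form of subunit 6b, had 2816 and 2737 on the fetal KO arrays, against 2489 and 2421 on the fetal WT arrays, and rose by 0.40 ± 0.04 (adjusted p = 0.0018, limma). Ndufa4l2, a relative of the complex IV subunit Ndufa4 that is induced by low oxygen, had 238 and 199 on the fetal KO arrays, against 182 and 162 on the fetal WT arrays (0.57 ± 0.15, adjusted p = 0.04, limma). With any 1 of the 4 fetal arrays left out its adjusted p was 0.0754 to 0.211, and with slide row as a block it was 0.0583. Cox4i2, the lung form of subunit 4, had 151 and 128 on the fetal KO arrays, against 129 and 132 on the fetal WT arrays. Its groups overlapped before scaling and its difference of 0.32 ± 0.11 did not pass (adjusted p = 0.093, limma).

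The ubiquitous partners moved less. In fetal KO against fetal WT the log2 difference was 0.14 for Cox6a1, 0.06 for Cox6b1 and 0.09 for Cox8a, none of which passed, while Cox7a2 rose by 0.25 and Cox4i1 by 0.15. Heart muscle markers moved in the same direction as Cox6a2, Cox8b and Cox7a1. Of 11 tested, 6 were called higher in fetal KO and 0 lower (median 1.28), led by Myh6 at 2.58 ± 0.45, the atrial light chain Myl7 at 2.42 ± 0.16 and Nppa at 2.14 ± 0.12. Their summed signal was 530 to 531 multiples of the 75th percentile in fetal KO and 230 to 235 in fetal WT, and all 11 were detected on both arrays of both fetal groups. Of 9 skeletal muscle markers 0 were called higher and 2 lower (median -0.71), with sums of 33.4 to 36.9 in fetal KO and 28.7 to 32.9 in fetal WT. Of 3 brown fat markers and 5 testis markers tested, 0 rose, and their sums stayed at or under 0.441 in both fetal groups. The part of other tissue in the fetal values was not tested.

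**Figure D3:**
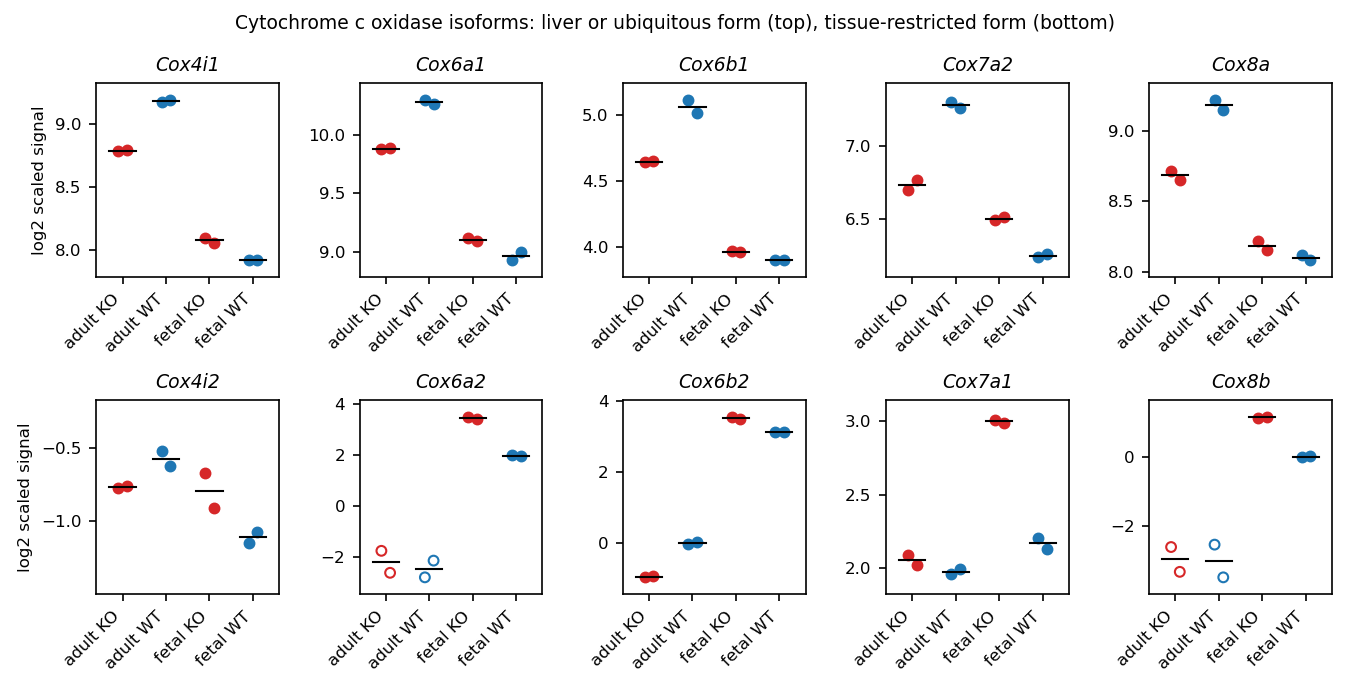
Log2 signal scaled to each array's 75th percentile (vertical axes, a separate range for each gene) for 5 liver or ubiquitous subunits of complex IV (top) and their tissue-restricted partners (bottom). Points are the 2 arrays of each group and bars are means. Open points mark groups in which the gene was not well above background on both arrays. Cox6a2, Cox8b and Cox7a1 were higher in fetal KO than in fetal WT. All 5 upper genes were higher in adult than in fetal liver on this scale.

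In adult liver 2 of these isoforms were near background. Cox6a2 gave 44.0 and 23.8 on the adult KO arrays, against 16.5 and 26.1 on the adult WT arrays, and Cox8b gave 24.5 and 14.6 on the adult KO arrays, against 19.8 and 10.3 on the adult WT arrays. Each was well above background on 1 of 2 adult KO arrays and 0 of 2 adult WT arrays. Cox6b2 had 75.5 and 76.2 on the adult KO arrays, against 111 and 116 on the adult WT arrays. It fell by 0.94 on the log2 scale (SE 0.04, adjusted p = 2.9e-06, limma), the lowest value of the 95 genes, and it lay between -0.97 and -0.54 under every alternative run for it, missing the adjusted p only with the median as scale (0.076, limma). Ndufa4l2 had 149 and 139 on the adult KO arrays, against 69.9 and 93.0 on the adult WT arrays. It rose by 0.48 ± 0.15 (adjusted p = 0.029, limma), but set against the second adult WT array alone the difference was 0.27 with an adjusted p of 0.11, and without the first or the second adult KO array the adjusted p was 0.126 or 0.0804. With normexp background correction the difference was 0.12 (adjusted p = 0.305, limma). Heart muscle markers summed to 2.01 to 2.30 in adult KO and 1.91 to 2.84 in adult WT, with 10 of 11 detected on neither adult KO array.

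The difference between the KO and WT RNA samples was compared between the stages, as adult KO minus adult WT less fetal KO minus fetal WT. Of the 95 genes 3 were called, all lower in the adult comparison, beside 9.74% of all genes tested (3.51% lower). Cox6b2 (-1.35 ± 0.06, adjusted p = 6.1e-06, limma) and Ndufa8 (-1.19 ± 0.17, adjusted p = 0.00094) were detected on all 8 arrays. The third, Cox6a2 (-1.20 ± 0.41, adjusted p = 0.044), was detected on just 1 adult array, so that its adult part is not a measured difference. It missed the adjusted p with slide row as a block (0.057), with the median as scale (0.127) and with quantile normalization, the detected-probe scale, the deposited table, no filter or no intensity trend (0.0674 to 0.0913). It also missed it without the second adult KO array (where the value was -0.76), the second adult WT array or any 1 of the 4 fetal arrays (0.0901 to 0.108). Without scaling between arrays 3 genes were called higher and 0 lower. By the second rule 6 genes were higher and 79 lower, where 21.1% of all genes tested were higher and 29.3% lower. The median was -0.49, beside -0.082 for all genes and -0.35 for the brightest 10%, and without scaling it was 0.10, with 37 genes higher and 12 lower. Among the 6 higher genes were Ndufs8, Ndufa10, Sdha, Ndufaf6 and Sdhaf3, and all 6 were also higher with quantile normalization.

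Between the stages most of these genes gave a higher scaled signal in adult than in fetal liver. In WT liver the adult sample was called higher for 50 of the 95 genes and lower for 3, where 26.9% of all genes tested were called higher and 28.3% lower. The number called higher depended on the scale: it was 7 with the median, 10 with quantile normalization and 16 with normexp, each beside 3 lower, and without scaling 0 were higher and 10 lower. The median was 1.03, beside -0.029 for all genes and 0.70 for the brightest 10%. In KO liver 20 were called higher and 3 lower in the adult sample, beside 25.7% and 27.8% of all genes, with a median of 0.56. There 7 were higher and 4 lower with quantile normalization, 1 higher and 4 lower with the median as scale, and 1 higher and 5 lower without scaling. The median in WT was 0.49 with quantile normalization, 0.33 with the median as scale and -0.26 without scaling, when that of all genes was -0.31, -0.73 and -1.32. Relative to all genes it thus stood 0.80 to 1.06 higher in the adult WT sample under these settings, and 0.52 higher with normexp background correction.

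**Figure D4:**
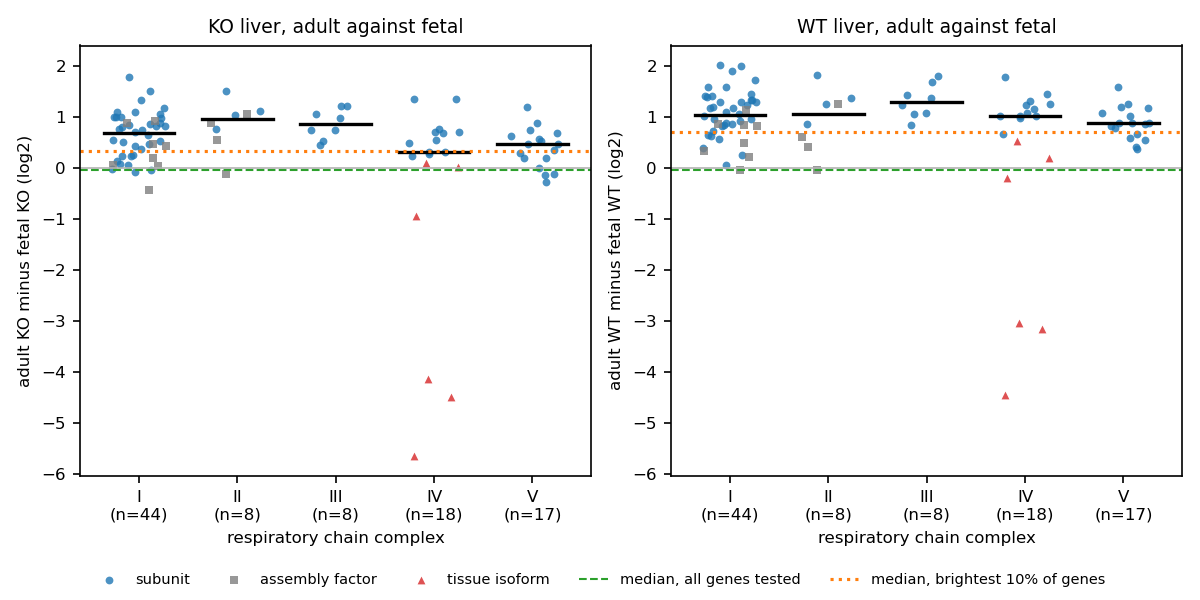
Log2 difference of adult minus fetal (vertical axes) for the 95 genes tested, by complex, in KO (left) and WT (right) liver. Points are genes from 2 arrays per group, black bars are medians by complex, and the dashed and dotted lines are the medians of all genes tested and of the brightest 10%. All complexes have medians above 0 as scaled (without scaling the medians over all 95 genes were -0.14 in KO and -0.26 in WT). The tissue isoforms Cox6a2, Cox6b2 and Cox8b of complex IV lie far below the rest.

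By complex the medians of adult WT against fetal WT were 1.04 for complex I, 1.05 for complex II, 1.30 for complex III, 1.03 for complex IV and 0.88 for complex V. The highest values belonged to 2 accessory subunits of complex I, Ndufa8 at 2.02 ± 0.12 and Ndufa1 at 2.01 ± 0.04. Ndufa1 had 23716 and 23238 on the adult WT arrays, against 14712 and 13797 on the fetal WT arrays. It was higher in adult liver before scaling too. Ndufb9 at 1.90, Sdhb at 1.82 and Uqcrb at 1.80 followed, from complexes I, II and III. The 12 assembly factors had a lower median, 0.56, and 2 of them were called.

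The 3 genes called lower in adult WT were tissue isoforms. Cox6b2 had 111 and 116 on the adult WT arrays, against 2489 and 2421 on the fetal WT arrays, an 8.84-fold lower value in adult WT (log2 difference -3.14 ± 0.04, adjusted p = 1.9e-10, limma). Cox6a2 and Cox8b, not well above background in adult WT, were at least 18.5-fold and at least 4.93-fold lower there. In KO liver Cox6b2 was 22.5-fold lower in the adult sample. Heart muscle markers were lower in adult liver too, with all 11 called in both genotypes, and their part was not tested. The remaining isoforms differed less between the stages: in adult WT against fetal WT Cox7a1 had -0.20 ± 0.04, Ndufa4l2 0.20 ± 0.15 and Cox4i2 0.54 ± 0.11.

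Subunit 6 of complex IV thus offers partners whose differences between the stages had opposite signs after scaling. Cox6b1 had 3981 and 3730 on the adult WT arrays, against 4279 and 4140 on the fetal WT arrays, and 1.16 ± 0.04 after scaling, while Cox6b2 fell steeply before and after scaling. The promoter windows of this pair, and of Cox6a1, are shown so that the letters upstream of genes with these differing patterns can be compared. They run from 250 bases before to 50 bases after the start, on the minus strand of RefSeq's GRCm38.p6, and capitals mark matches on either strand to CCGGAAG (the core of ETS factors such as NRF2/GABP), GCATGCG (NRF1), AAGATGG (YY1), CANNTG (E-box), CCAAT or TATAAA.
Cox6b2, chr7:4753045-4753344: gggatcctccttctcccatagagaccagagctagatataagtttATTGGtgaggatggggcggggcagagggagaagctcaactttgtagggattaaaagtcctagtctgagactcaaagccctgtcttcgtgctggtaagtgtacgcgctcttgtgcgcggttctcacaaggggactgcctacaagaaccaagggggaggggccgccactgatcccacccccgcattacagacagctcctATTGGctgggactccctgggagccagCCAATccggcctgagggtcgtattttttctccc
Cox6b1, chr7:30626065-30626364: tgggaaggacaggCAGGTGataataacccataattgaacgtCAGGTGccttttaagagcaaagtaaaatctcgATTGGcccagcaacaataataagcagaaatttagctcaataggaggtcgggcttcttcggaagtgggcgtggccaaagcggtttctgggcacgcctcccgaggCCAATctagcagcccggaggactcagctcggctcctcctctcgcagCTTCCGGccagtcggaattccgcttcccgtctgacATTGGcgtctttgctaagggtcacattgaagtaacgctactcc
Cox6a1, chr5:115348909-115349208: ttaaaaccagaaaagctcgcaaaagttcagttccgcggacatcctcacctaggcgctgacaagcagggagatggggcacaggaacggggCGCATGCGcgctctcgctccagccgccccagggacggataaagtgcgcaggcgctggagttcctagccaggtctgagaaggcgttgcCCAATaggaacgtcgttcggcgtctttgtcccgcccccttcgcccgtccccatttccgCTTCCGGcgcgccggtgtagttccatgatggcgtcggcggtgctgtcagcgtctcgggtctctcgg
The window of Cox6b2 held only CCAAT boxes, at 3 places. That of Cox6b1 held an ETS core, CCAAT boxes and E-boxes, and that of Cox6a1 an ETS core, overlapping matches to the NRF1 core and a CCAAT box. Of the 97 genes 80 had a window, 85 windows in all. The ETS core stood in 25.9% of these windows and in 8.86% of all 32851 windows of the table, the NRF1 core in 15.3% and 3.58%, and the YY1 core in 14.1% and 6.34%. CCAAT stood in 42.4% and 37.4%, the E-box in 68.2% and 72.3%, and TATAAA in 11.8% and 13.6%. The windows of these genes are richer in G and C, with a median of 58.7% against 52.7%. A match is a description of letters and was not tested as a binding site.

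The 3 genes that encode the identical c subunit of the ATP synthase's rotor differ in their targeting sequences. All 3 fell in adult KO liver as scaled, Atp5g1 by 0.40, Atp5g2 by 0.38 and Atp5g3 by 0.51 on the log2 scale. With quantile normalization Atp5g1 no longer fell. In fetal KO none passed, with 0.16 for Atp5g1, 0.02 for Atp5g2 and 0.07 for Atp5g3. In adult WT against fetal WT Atp5g3 had 1.25 and Atp5g1 had 1.02. Atp5g2 had only 0.41 ± 0.03, with 30588 and 30126 on the adult WT arrays, against 56826 and 55174 on the fetal WT arrays. It was lower in adult WT before scaling, and its sign turned with quantile normalization (-0.15) and with the median as scale (-0.29).

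Genes around the respiratory chain were compared from fixed lists. For comparison, 22.3% of all genes tested rose and 32.2% fell in adult KO. Of 34 assembly factors outside the name rule, 2 rose and 21 fell in adult KO (median -0.22), with Coa4, a complex IV factor, at -0.66 ± 0.04 and Uqcc3, a complex III factor, at -0.61 ± 0.03. Of 13 electron carriers and further subunits, 3 rose and 5 fell (median -0.03). Among them Etfdh and Etfb, which pass electrons from fatty acid oxidation to quinone, fell by 0.98 and 0.81, and Coq8a, of quinone synthesis, rose by 0.53 ± 0.06. Of 18 citric acid cycle genes 4 rose and 9 fell (median -0.14), with Dlst at -0.80 ± 0.04 and Fh1 at -0.71 ± 0.03. Of 23 genes of mitochondrial protein import and the outer membrane 1 rose and 18 fell (median -0.37), with Timm10 at -0.79 ± 0.06. Of 19 regulators of mitochondrial biogenesis 0 rose and 9 fell (median -0.21), with Ppargc1a, a coactivator of this gene set, at -0.54 ± 0.13. Of 8 genes of ATP export and uncoupling 4 rose and 2 fell (median 0.17), with the uncoupling protein genes Ucp3 and Ucp2 at 0.97 ± 0.05 and 0.59 ± 0.05. None of these lists held a gene called at 2-fold in adult KO, where 7.52% of all genes tested were called.

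In fetal KO the same lists had medians between -0.037 and 0.018 and held no call, beside 1.91% of all genes tested. Between the stages they differed from each other. For comparison, 26.9% of all genes tested were called higher and 28.3% lower in adult WT against fetal WT. In adult WT against fetal WT the electron carriers had 7 genes called higher and 0 lower (median 1.13), with Coq8a at 4.74 ± 0.06 and Etfdh at 4.03 ± 0.04. The assembly factors outside the rule had 13 higher and 0 lower (median 0.88), led by Sco2, a copper chaperone of complex IV, at 3.87 ± 0.03. The citric acid cycle had 8 higher and 1 lower (median 0.80). The import list had 0 higher and 1 lower (median 0.05). The list of ATP export and uncoupling had 1 higher and 4 lower (median -1.77), with Atpif1, an inhibitor of the ATP synthase, at -4.05 ± 0.05 and Slc25a4, an ADP/ATP carrier, at -3.79 ± 0.03. The biogenesis regulators had 5 higher and 4 lower, with Ppargc1a at 2.31 ± 0.13 and Nrf1 at -2.04 ± 0.04. Red cell markers, 10 of 11 called lower in adult WT (median -4.58), and hepatocyte markers, 10 of 10 called higher (median 3.54), moved beside these values, and their part was not tested.

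**Figure D5:**
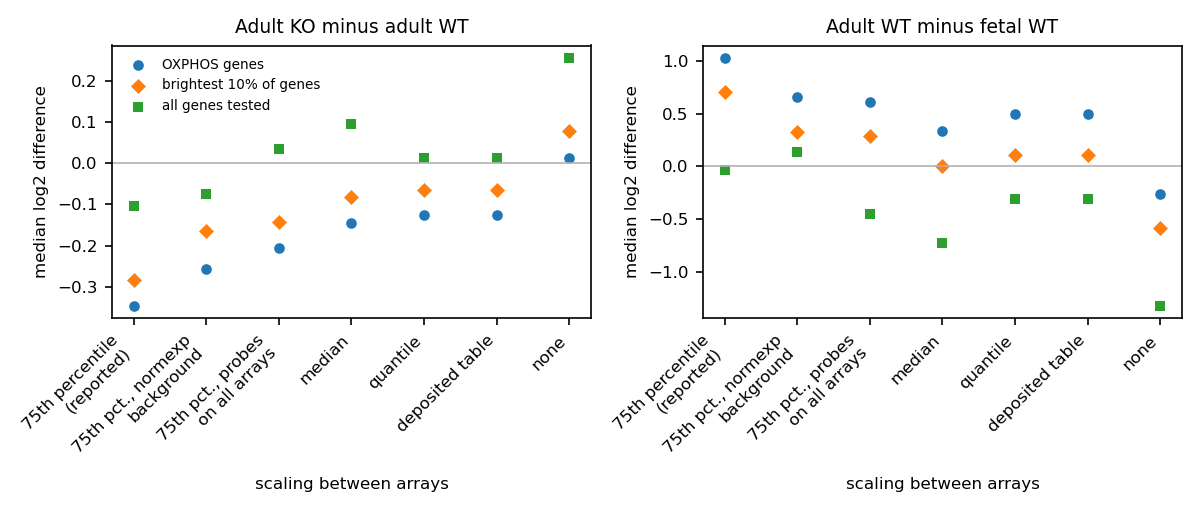
Median log2 difference (vertical axes) of the 95 oxidative phosphorylation genes, the brightest 10% of genes and all genes tested under 7 ways of putting the arrays on a common scale (horizontal axes), for adult KO minus adult WT (left) and adult WT minus fetal WT (right). In the left panel the 95 genes stay below the other sets under every scaling while their sign turns without scaling (0.014). In the right panel they stay above the other sets and turn to -0.26 without scaling.

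Where a gene had several probes, they did not always read alike. Of 23 such genes the sign differed between probes for 4 in adult KO against adult WT, for 6 in fetal KO against fetal WT and for 0 in adult WT against fetal WT. For Ndufv3, an accessory subunit of complex I, the probe used gave -0.39 and the other 0.73 in adult KO against adult WT. Likewise the probe used and the other gave -0.35 and 0.45 for the accessory subunit Ndufb11, and -0.57 and 0.13 for the assembly factor Ndufaf4. For Cox7a2l, a factor that joins complexes III and IV, the 3 probes gave -0.60, -0.36 and 0.26. Brighter genes among the 95 had lower differences in adult KO (Pearson's r = -0.49 between difference and mean log2 signal, across 95 genes that share the same arrays) and higher ones in adult WT against fetal WT (r = 0.58), as a description only. Across the 89 genes that are not tissue isoforms r was -0.45 and 0.42.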

How the data were processed

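Liver RNA of 4 groups was hybridised in Cy3 to 8 single-colour Agilent arrays. Per the file headers, 1 slide and 1 scan held all of them, and Agilent Feature Extraction 10.7.3.1 gave the deposited processed signal, median signal and background, all linear intensity values. How the authors made the deposited value table, also an intensity, is unknown here. It served as an alternative.

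Control spots and outlier flags (92 to 188 spots per array) were left out, and spots of 1 probe were averaged. Values are log2 of the processed signal minus each array's 75th percentile. Probes were named through the RefSeq table of GRCm38.p6: 26762 had a symbol and 28919 none. A gene was read through its brightest probe, if both arrays of some group showed that probe well above background. Differences were fitted with limma 3.58.1 in R 4.3.3 (lmFit, eBayes with trend), 4 groups in 1 fit, adjusted by Benjamini and Hochberg over 14578 genes. Values are log2 differences ± SE. The limma step was tested on simulated data. The number of arrays limits the precision.

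Where a gene was on neither array of a group well above background, the brighter group was set against the higher of the gene's signal and the lowest detected signal on each array ("at least N-fold"). Alternatives were other scalings, normexp background on the median signal (the mean signal column was not used here; offset 50), filters, probe averaging, slide row as a block and leaving out arrays. Arrays in the same row did not deviate together: residuals of 6 pairs correlated at -0.14 to 0.08. Each group filled its own column of the slide (fetal WT column 1, fetal KO column 2, adult WT column 3, adult KO column 4). Column and group therefore cannot be told apart, and an effect of column could not be checked.

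The genes and lists were chosen with earlier results of these data known. Named were genes called between KO and WT or in the difference between stages; the highest and lowest subunit per complex in each KO comparison; the 5 highest and 5 lowest called between WT stages and the 3 largest bounds; isoform pairs; Btg2; and at most 4 genes per list. One gene this rule names is not reported here. Others named, such as Ndufs7, Ndufv1, Sdhc and genes whose probes disagree, were chosen after their values were seen.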

Additional observations from a re-analysis of the deposited data

Results flagged for a closer look

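For 3 genes the difference of KO minus WT was called as unlike between the adult and the fetal RNA samples, and for Cox6a2 this rests on adult signals near background. Cox6b2 differed by -0.94 in adult and by 0.40 in fetal liver, so that the adult difference was lower by 1.35 on the log2 scale (-1.35 ± 0.06). Ndufa8 differed by -0.53 in adult and by 0.65 in fetal liver (-1.19 ± 0.17), and the fetal WT duplicates of this gene gave 2601 and 1876. Cox6a2 gave -1.20 ± 0.41, but it was not well above background on 3 of 4 adult arrays, so that this value is not a measured difference between the stages, and it missed the threshold under 13 alternatives (adjusted p 0.057 to 0.127, limma). In all, 79 of the 95 genes had a lower difference of KO minus WT in adult than in fetal liver at an adjusted p under 0.05 in limma. By the same rule 29.3% of all genes tested were lower, and 1021 of the 1457 genes in the brightest 10%. With quantile normalization 43 of the 79 were lower, beside 22% of all genes tested. With the median as scale 0 of the 95 passed in either direction, and without scaling 37 were higher and 12 lower.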

How the results depend on the processing

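No gene was called in adult KO against adult WT under any of the alternatives run. The median of the 95 genes in adult KO against adult WT was -0.15 with the median as scale, -0.13 with quantile normalization and with the deposited table, -0.21 with the 75th percentile of probes detected on all arrays, -0.26 with normexp and 0.014 without scaling between arrays, an alternative added after the data were seen. The genes that rose were 0, 9, 10 and 9 with the median, quantile, detected-probe and deposited scales, and 0 fell with the median as scale. With the median as scale 38 of 73 named differences also missed the threshold that they passed as reported, and the cause was not tested.

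In fetal KO against fetal WT the medians on the same settings were 0.15, 0.037, 0.039, 0.086, 0.049 and -0.12, and 0.086 without the filter on dim probes or with only genes detected on all arrays. Called were 2 with the median, the detected-probe scale, slide row as a replicate block or the 2-fold rule without a test, and 0 among genes detected on all arrays. Those that rose were 2 with the median, 20 with quantile normalization, 21 with the deposited table and 18 without the intensity trend. Those that fell were 0, 9, 9 and 2 there, 8 with the detected-probe scale and 7 with normexp.

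For adult WT against fetal WT the median was 0.33, 0.49, 0.49, 0.61, 0.66 and -0.26, and 0.96 with probes averaged, and 10, 13, 13, 18 and 19 genes were called. For adult KO against fetal KO it was 0.022, 0.39, 0.38, 0.30, 0.36 and -0.14, and 0.60 with probes averaged, and 5, 11, 11, 10 and 12 were called. For the difference between stages it was -0.33, -0.16, -0.16, -0.33, -0.32 and 0.10, and -0.44 with probes averaged. Called were 0 with the median; 0 were higher and 0 lower there, and 10 higher and 43 lower with quantile normalization and with the deposited table.

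Leaving out 1 array at a time gave medians of -0.39 to -0.29 in adult KO against adult WT, the extremes without the second and the first adult WT array. In fetal KO against fetal WT it gave 0 to 2 called (0 without any 1 of the fetal arrays), 6 to 40 that rose and 1 to 6 that fell, and in the difference between stages 1 to 4 called (1 without the second fetal WT array). Of the 73 named differences 12 changed sign under some alternative, 10 of them differences that did not pass as reported (among these Uqcrc1, Atp5pb, Cox6a2 and Cox8b in adult KO against adult WT and Ndufa4l2 in adult WT against fetal WT). Signs turned with a passing value on at least 1 side for Cox4i2 in adult WT against fetal WT (-0.16 with the median) and for Atp5g2, at -0.097 and -0.094 in fetal KO against fetal WT with quantile normalization and the deposited table, and at -0.29, -0.15, -0.013 and -0.14 in adult WT against fetal WT with the median, quantile, detected-probe and deposited scales. With slide row as a block, Cox8b and Sdhb passed in fetal KO against fetal WT (adjusted p = 0.032 and 0.018, limma) while Ndufa4l2 in fetal KO against fetal WT (0.0583) and Cox6a2 in the difference between stages (0.057) no longer did.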
